A study of Mus musculus with 12 samples.

Results

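Messenger RNA of 29 mouse genes of cholesterol synthesis, sensing, transport, storage and efflux was described in white adipose tissue (WAT) and cultured adipocytes of mice with and without a deletion of Xap5 in adipocytes. The genes were taken by symbol from a fixed list, and all 29 were found among the 26639 features counted in WAT and the 22851 counted in culture. They comprise 19 synthesis enzymes, 4 sterol sensing genes, 4 transport and storage genes and 2 efflux transporters. Cholesterol is built from acetyl-CoA through mevalonate and squalene, and falling sterol in the endoplasmic reticulum releases the transcription factor SREBP2 (Srebf2), which switches the synthesis genes on. Surplus cholesterol is esterified for storage or exported, and export genes are switched on by liver X receptors that sense oxysterols. Adipocytes hold a large store of unesterified cholesterol at the surface of their lipid droplet.

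The study asked what Xap5, the nuclear protein that Fam50a encodes, does in the development and death of adipocytes. There were 12 libraries in 4 groups of 3. WAT of conditional knockout (cKO) mice and WAT of wild-type (WT) mice was taken at postnatal day 42. The depot of this tissue was not given. Cultured adipocytes labelled XAP5 KO and WT were harvested at day 8 of adipogenic induction. Their pre-adipocytes came from subcutaneous white fat of newborn cKO or WT animals and were induced with insulin, dexamethasone and IBMX, then kept in insulin. In the cKO mice the deletion was confined by design to mature adipocytes through the adiponectin promoter, so other cells of the tissue, and cultured cells that had not matured, would keep the gene. Nothing in the labels states that replicates were separate animals or cultures. The p-values therefore measure the spread between these libraries, which could be technical.

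Total counts were 33132906 to 33997204 in cKO WAT, against 28844370 to 30704234 in WT WAT. They were 10863158 to 21773610 in KO cultures, against 11601138 to 12401278 in WT cultures. Levels are CPM, read counts relative to library size. They were scaled within WAT and within culture by TMM, the trimmed mean of the log ratios between libraries, and are not on 1 scale across the systems. Fam50a itself had 23.3, 16.8 and 28.9 CPM in cKO WAT, against 35.3, 32.5 and 36.5 CPM in WT WAT (log2 fold change -0.60, SE 0.20, adjusted p = 0.0395). In culture Fam50a had 46.2, 42.9 and 41.1 CPM in KO cultures, against 57.9, 52.0 and 45.2 CPM in WT cultures (log2 fold change -0.26, SE 0.12, adjusted p = 0.134). The target thus passed the test in tissue alone, and there its adjusted p ran from 0.0114 to 0.736 over the alternatives, so that its call depends on the setting.

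The tissue libraries also differed in their cell markers. Beside the marker counts, 24.2% of all genes tested fell and 28.2% rose in WAT, and 10.6% fell and 8.94% rose in culture. Of 10 adipocyte markers, 8 fell in cKO WAT, with summed levels of 12571, 23517 and 9178 CPM in cKO WAT, against 68036, 71936 and 72726 CPM in WT WAT. Sums weigh abundant genes most, and Cfd alone had a mean of 904 CPM in cKO WAT, against 29387 CPM in WT WAT. Of 12 macrophage markers, 11 rose, with summed levels of 3501, 1663 and 3638 CPM in cKO WAT, against 347, 279 and 412 CPM in WT WAT. Among fibroblast markers 7 of 8 rose, with sums of 6138 to 9301 CPM in cKO WAT, against 2885 to 3562 CPM in WT WAT. Among endothelial markers 5 of 6 fell, with sums of 493 to 746 CPM in cKO WAT, against 946 to 1355 CPM in WT WAT. No adipocyte or macrophage marker was at 0 in any library. In bulk tissue, fewer cells of a type and less RNA per cell cannot be told apart, and the part of these markers in the results below was not tested. Epithelial markers summed to 559.5 CPM in cKO replicate 3 and to at most 23.3 CPM in the other WAT libraries. Skeletal muscle markers summed to 1119 CPM in cKO replicate 1 and to 1559 CPM in WT replicate 3, and to at most 234 CPM in the other WAT libraries. In culture 4 of 10 adipocyte markers rose, 1 fell and 5 did not pass in the KO. Their sums were 30497, 25847 and 28357 CPM in KO cultures, against 21526, 20034 and 19730.5 CPM in WT cultures. Most of that difference lay in Fabp4, with a mean of 14930 CPM in KO cultures, against 8032 CPM in WT cultures. There, 6 of 12 macrophage markers fell, with sums of 2599, 2725 and 2422 CPM in KO cultures, against 3566, 3886 and 3375 CPM in WT cultures.

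In cKO WAT, 20 of the 29 genes fell and 4 rose at an adjusted p under 0.05. Among all 16293 genes tested there, 24.2% fell and 28.2% rose. The median log2 fold change of the 29 genes was -1.25, against 0.12 over all genes tested. Of the 19 synthesis enzymes, 16 fell and 0 rose, whereas both efflux transporters and Soat1, which esterifies cholesterol, rose. Of the synthesis enzymes 0 rose at an unadjusted p under 0.05 too, where 5237 of all genes tested in WAT rose. DESeq2 and limma voom gave the same call as edgeR for each of the 29 genes in WAT and in culture. Hmgcs1, Ggps1, Hsd17b7, Insig2 and Stard4 did not pass, and the direction of all 5 in WAT depended on the scaling or trend setting. Scaling by library size alone moved the median change of all genes up by 0.68 and turned the 4595 rises and 3947 falls of all genes into 8838 and 1427. Under it 16 of the 29 genes fell and 8 rose, and after removal of a trend in transcript length and GC content 23 fell and 3 rose, beside 4774 falls and 2910 rises of all genes.

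In KO cultures, 8 of the 29 genes fell and 0 rose, where 10.6% of 12587 genes tested fell and 8.94% rose. At an unadjusted p under 0.05, 2 rose and 11 fell, beside 1982 rises and 2280 falls among all genes tested. DESeq2 and limma voom also called 0 of the 29 higher. The 8 were Dhcr7, the only synthesis enzyme called, with Srebf2, Scap, Insig1, Npc1, Npc2, Abca1 and Abcg1. The median log2 fold change of the 29 genes was -0.22, against -0.02 over all genes tested. The plot of fold changes by role sets both comparisons side by side.

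**Figure D1:**
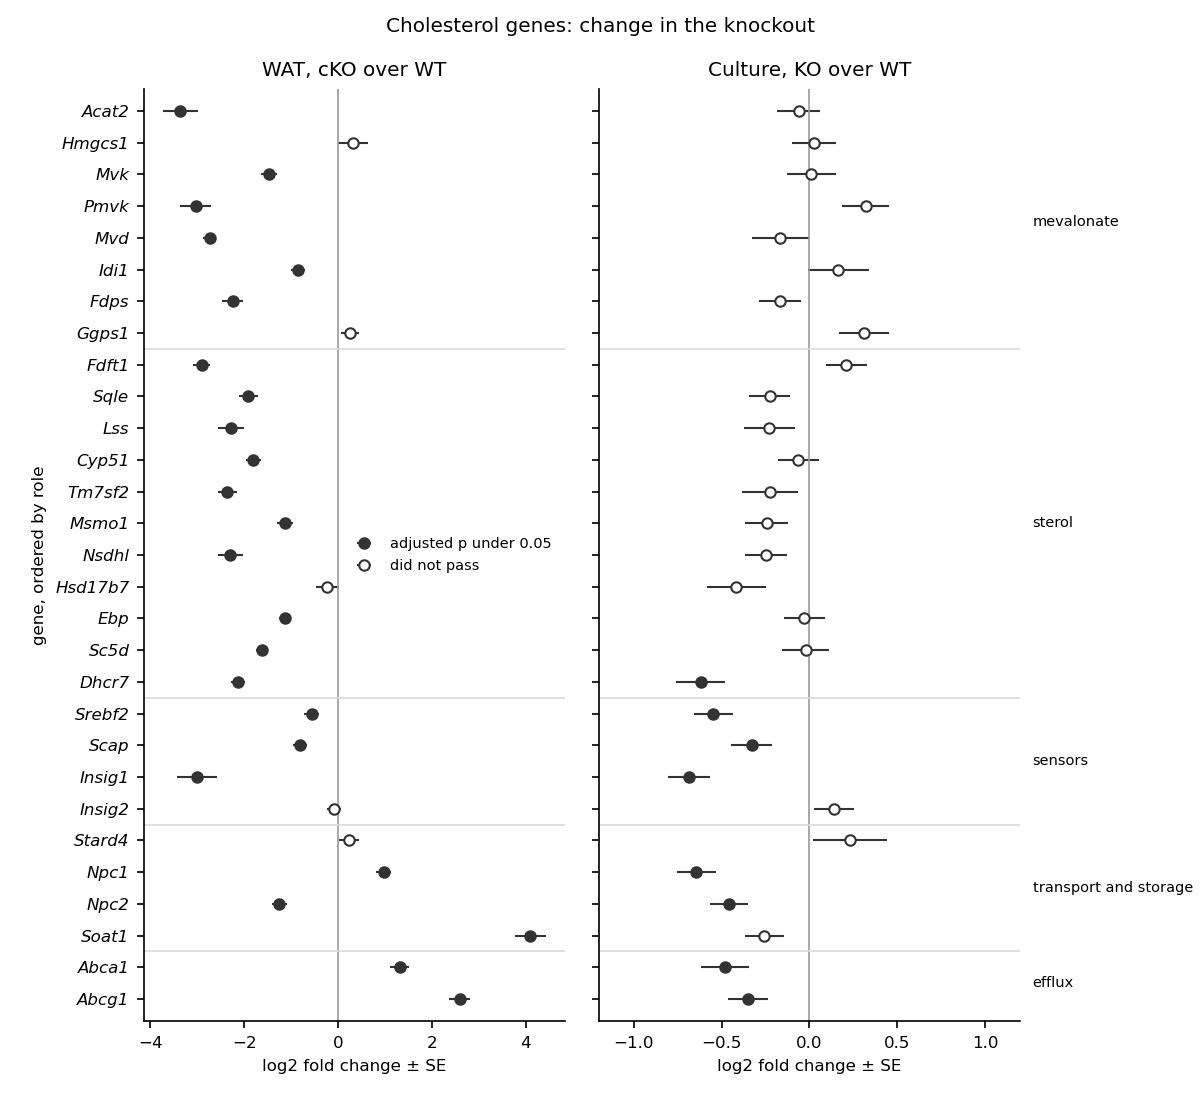
Log2 fold change (x axis) of the 29 genes, ordered down the page by role, in cKO over WT WAT (left) and KO over WT culture (right), with bars of 1 SE from 3 libraries per group. The 2 panels have different x scales, filled points passed an adjusted p under 0.05, and in WAT the filled points of the synthesis enzymes all lie left of 0.

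The stretch of 250 bases upstream of the RefSeq gene start (GRCm38.p6) was matched for 23 of the 29 genes. It was searched on both strands for the sterol regulatory element core TCACNCCAC, for the box CCAAT that often stands beside it, and for the repeat bound by liver X receptors, 2 copies of AGGTCA on 1 strand with 4 bases between them. Sqle, Fdft1, Fdps, Stard4, Abcg1 and Npc1 had no entry. The element core was found in 1 of the 23 genes, Hmgcs1, against 1.22% of all 27025 genes. A CCAAT box was found in 20 of the 23, which is 87% of them, against 37.5% of all genes. Some genes have more than 1 window, and a gene was counted if any of its windows matched. By window, 20 of 29 held the box (69%), against 33.8% of all 32851 windows. The liver X receptor repeat was found in 0 of the 23 and in 0.0148% of all genes. Only exact copies were searched, and just 4 of all 27025 genes held them. A count of 0 was therefore nearly fixed in advance and cannot show that a gene lacks a site. Such matches describe letters and are not tests of binding. After their changes were seen, 3 genes were picked. Hmgcs1 holds the element core yet did not pass the test in WAT. Insig1 had the largest fall of the sensors, and Soat1 had the largest rise. The windows of the 3 are shown as description, and no expression result rests on them. They lie at chr13:119690101-119690350 on the plus strand, chr5:28071162-28071411 on the plus strand and chr1:156474329-156474578 on the minus strand, each ending at the base before the gene start. Capitals mark the element core and CCAAT boxes on either strand, and no marked motifs overlap.
Hmgcs1: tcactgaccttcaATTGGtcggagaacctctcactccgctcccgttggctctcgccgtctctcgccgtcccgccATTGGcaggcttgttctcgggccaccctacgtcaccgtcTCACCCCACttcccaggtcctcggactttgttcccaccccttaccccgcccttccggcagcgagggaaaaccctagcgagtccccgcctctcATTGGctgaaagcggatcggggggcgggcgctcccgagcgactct
Insig1: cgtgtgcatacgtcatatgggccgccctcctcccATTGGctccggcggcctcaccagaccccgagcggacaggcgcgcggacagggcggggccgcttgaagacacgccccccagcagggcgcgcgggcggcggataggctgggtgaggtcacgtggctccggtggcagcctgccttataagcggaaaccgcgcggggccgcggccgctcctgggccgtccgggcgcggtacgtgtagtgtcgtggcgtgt
Soat1: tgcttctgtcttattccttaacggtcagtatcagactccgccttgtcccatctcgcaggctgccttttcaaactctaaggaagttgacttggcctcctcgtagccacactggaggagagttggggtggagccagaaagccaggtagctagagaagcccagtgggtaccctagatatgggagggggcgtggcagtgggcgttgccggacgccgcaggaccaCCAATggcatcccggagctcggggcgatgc
The element core of Hmgcs1 reads TCACCCCAC and stands 137 to 129 bases upstream, between CCAAT boxes at 176 to 172 and 45 to 41 bases upstream on the opposite strand, with a further box at 237 to 233. Insig1 has 1 box at 216 to 212 bases, and Soat1 has 1 at 30 to 26 bases.

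The mevalonate arm carries acetyl-CoA to the isoprenoid diphosphates from which sterols, dolichol, ubiquinone and protein prenyl groups are made. In cKO WAT 6 of its 8 genes fell, beside 24.2% of all genes tested. None of the 8 passed in KO cultures, where 10.6% of all genes tested fell and 8.94% rose. At an unadjusted p under 0.05, 2 of the 8 rose there, beside 1982 of all 12587 genes tested. Acat2 encodes the cytosolic thiolase that joins acetyl-CoA units at the start of the arm. It had 43.1, 86.1 and 33.3 CPM in cKO WAT, against 514, 531 and 622 CPM in WT WAT (log2 fold change -3.36, SE 0.37, adjusted p = 0.000772). The cKO libraries all lay far below all WT libraries. In culture, Acat2 had 34.3, 39.4 and 44.9 CPM in KO cultures, against 43.0, 41.4 and 39.8 CPM in WT cultures (log2 fold change -0.06, SE 0.12, adjusted p = 0.771), and the groups overlapped. Acat2 has a close copy, Acat3, with 124, 441 and 84 reads in cKO WAT, against 1230, 1569 and 2127 reads in WT WAT, so that reads of the pair may be split between them. Hmgcs1 encodes the synthase that adds a further acetyl unit, and it is a classical SREBP2 target. It had 97.3, 194 and 92.1 CPM in cKO WAT, against 134, 91.2 and 82.4 CPM in WT WAT (log2 fold change 0.32, SE 0.33, adjusted p = 0.438). The groups overlapped, and cKO replicate 2 had the highest value of the 6 libraries. In culture, Hmgcs1 had 58.2, 66.5 and 62.4 CPM in KO cultures, against 57.4, 53.8 and 72.6 CPM in WT cultures (log2 fold change 0.03, SE 0.12, adjusted p = 0.901), with overlap again.

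The 3 enzymes that follow turn mevalonate into isopentenyl diphosphate. Mvk, mevalonate kinase, had 26.5, 35.7 and 25.7 CPM in cKO WAT, against 73.1, 91.8 and 79.0 CPM in WT WAT (log2 fold change -1.47, SE 0.17, adjusted p = 0.000882). In culture, Mvk had 26.2, 23.6 and 21.2 CPM in KO cultures, against 26.4, 22.4 and 21.5 CPM in WT cultures (log2 fold change 0.01, SE 0.14, adjusted p = 0.967). The WAT groups were apart and the culture groups overlapped. Pmvk, phosphomevalonate kinase, had 27.4, 53.0 and 21.4 CPM in cKO WAT, against 277, 283 and 274 CPM in WT WAT (log2 fold change -3.03, SE 0.34, adjusted p = 0.000805). In culture, Pmvk had 45.2, 34.0 and 42.4 CPM in KO cultures, against 37.3, 30.3 and 29.4 CPM in WT cultures (log2 fold change 0.32, SE 0.13, adjusted p = 0.0941). Its culture difference, toward the KO, had the smallest p of the arm there and did not pass. Mvd, the decarboxylase that yields isopentenyl diphosphate, had 15.8, 16.6 and 16.1 CPM in cKO WAT, against 97.2, 103 and 123 CPM in WT WAT (log2 fold change -2.74, SE 0.14, adjusted p = 0.000231). In culture, Mvd had 15.9, 12.6 and 15.9 CPM in KO cultures, against 19.5, 16.6 and 13.5 CPM in WT cultures (log2 fold change -0.17, SE 0.16, adjusted p = 0.508), and there the groups overlapped. The cKO values of Mvd in WAT were the tightest of any of the 29 genes in that group, with a coefficient of variation of 2.65%.

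Idi1, Fdps and Ggps1 handle the isoprenoid units. Idi1 isomerises isopentenyl diphosphate, and it had 19.2, 17.4 and 17.1 CPM in cKO WAT, against 37.6, 27.7 and 31.8 CPM in WT WAT (log2 fold change -0.86, SE 0.15, adjusted p = 0.00330). In culture, Idi1 had 16.1, 16.3 and 19.2 CPM in KO cultures, against 12.2, 13.2 and 20.7 CPM in WT cultures (log2 fold change 0.17, SE 0.18, adjusted p = 0.542). The WAT groups were apart and the culture groups overlapped. The fall of Idi1 in WAT was the smallest that passed in this arm, and it did not pass with library size alone (-0.18; adjusted p over all alternatives from 1.88e-06 to 0.348). Fdps condenses the units to farnesyl diphosphate, and it had 40.7, 65.5 and 39.4 CPM in cKO WAT, against 217, 228 and 244 CPM in WT WAT (log2 fold change -2.24, SE 0.22, adjusted p = 0.000633). In culture, Fdps had 101, 82.5 and 87.2 CPM in KO cultures, against 112, 105 and 86.4 CPM in WT cultures (log2 fold change -0.17, SE 0.12, adjusted p = 0.338), with overlapping groups. Ggps1 leads away from sterols to geranylgeranyl diphosphate, used in protein prenylation. It had 20.3, 21.7 and 15.9 CPM in cKO WAT, against 19.3, 14.4 and 14.7 CPM in WT WAT (log2 fold change 0.26, SE 0.19, adjusted p = 0.275). In culture, Ggps1 had 26.7, 30.5 and 31.0 CPM in KO cultures, against 19.3, 23.5 and 28.4 CPM in WT cultures (log2 fold change 0.31, SE 0.14, adjusted p = 0.127). Neither difference passed, and the groups overlapped in both systems. In WAT Ggps1 passed as higher with library size alone (0.94) and as lower after removal of the length and GC trend (-0.69; adjusted p over all alternatives from 0.00388 to 0.577).

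The sterol arm starts with squalene. Of its 11 enzymes, 10 fell in cKO WAT, beside 24.2% of all genes tested. In KO cultures 1 of them, Dhcr7, fell, beside 10.6% of all genes tested. Fdft1, squalene synthase, commits farnesyl diphosphate to sterols. It had 44.2, 53.2 and 40.3 CPM in cKO WAT, against 305, 411 and 313 CPM in WT WAT (log2 fold change -2.90, SE 0.18, adjusted p = 0.000413). In culture, Fdft1 had 117, 92.1 and 101 CPM in KO cultures, against 96.6, 84.9 and 86.3 CPM in WT cultures (log2 fold change 0.21, SE 0.12, adjusted p = 0.206). The WAT groups were far apart, and the culture groups overlapped with the KO mean on the higher side. Exons of Fdft1 share 18.3% of their bases with Ctsb, a lysosomal protease gene on the opposite strand, and the strand setting of the counts is not known. Sqle oxidises squalene and is often rate-limiting. It had 17.5, 22.4 and 20.2 CPM in cKO WAT, against 59.0, 71.9 and 95.5 CPM in WT WAT (log2 fold change -1.91, SE 0.20, adjusted p = 0.000730). In culture, Sqle had 49.6, 42.0 and 48.6 CPM in KO cultures, against 52.5, 56.2 and 55.1 CPM in WT cultures (log2 fold change -0.23, SE 0.11, adjusted p = 0.164). Its culture groups did not overlap, yet the difference did not pass. Lss folds the product into lanosterol, and it had 20.9, 30.3 and 14.1 CPM in cKO WAT, against 94.6, 97.4 and 125 CPM in WT WAT (log2 fold change -2.28, SE 0.28, adjusted p = 0.00105). In culture, Lss had 17.4, 21.6 and 24.1 CPM in KO cultures, against 26.4, 24.7 and 23.2 CPM in WT cultures (log2 fold change -0.23, SE 0.14, adjusted p = 0.271). Lss overlapped in culture and was apart in WAT.

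Lanosterol then loses its methyl groups. Cyp51, lanosterol demethylase, had 37.6, 39.4 and 28.7 CPM in cKO WAT, against 106, 125 and 136 CPM in WT WAT (log2 fold change -1.80, SE 0.17, adjusted p = 0.000612). In culture, Cyp51 had 63.9, 53.7 and 65.8 CPM in KO cultures, against 61.4, 61.0 and 68.9 CPM in WT cultures (log2 fold change -0.06, SE 0.12, adjusted p = 0.746). Every cKO WAT library was below every WT one, and the cultures overlapped. Tm7sf2, a sterol reductase that acts after Cyp51, had the lowest cKO level per kilobase of transcript among the 10 enzymes that fell. It had 5.64, 8.60 and 6.64 CPM in cKO WAT, against 41.7, 34.5 and 30.8 CPM in WT WAT (log2 fold change -2.36, SE 0.21, adjusted p = 0.000548). In culture, Tm7sf2 had 24.3, 17.98 and 19.7 CPM in KO cultures, against 29.6, 22.5 and 19.6 CPM in WT cultures (log2 fold change -0.22, SE 0.16, adjusted p = 0.339), and the same pattern of overlap held. Msmo1 is the methylsterol oxidase, and it had 36.6, 31.2 and 34.7 CPM in cKO WAT, against 58.5, 78.5 and 86.6 CPM in WT WAT (log2 fold change -1.13, SE 0.17, adjusted p = 0.00194). In culture, Msmo1 had 37.5, 35.8 and 39.4 CPM in KO cultures, against 41.9, 40.9 and 50.5 CPM in WT cultures (log2 fold change -0.24, SE 0.12, adjusted p = 0.158). Its groups did not overlap in either system. The fall of Msmo1 in WAT did not pass with library size alone (-0.44; adjusted p over all alternatives from 3.35e-08 to 0.0538). Nsdhl, the sterol dehydrogenase of the same step, had 29.4, 48.1 and 25.9 CPM in cKO WAT, against 147, 162 and 196 CPM in WT WAT (log2 fold change -2.29, SE 0.26, adjusted p = 0.000825). In culture, Nsdhl had 45.5, 37.8 and 45.8 CPM in KO cultures, against 50.9, 49.0 and 53.2 CPM in WT cultures (log2 fold change -0.25, SE 0.12, adjusted p = 0.140), again without overlap in either system. Hsd17b7, the reductase that completes demethylation, was the enzyme of the arm that did not pass in WAT. It had 9.52, 10.5 and 7.86 CPM in cKO WAT, against 10.4, 8.35 and 13.8 CPM in WT WAT (log2 fold change -0.22, SE 0.24, adjusted p = 0.455). In culture, Hsd17b7 had 10.0, 15.0 and 11.8 CPM in KO cultures, against 17.0, 13.9 and 18.8 CPM in WT cultures (log2 fold change -0.42, SE 0.17, adjusted p = 0.0835), and the groups overlapped in both systems. After removal of the length and GC trend Hsd17b7 passed as lower in WAT (-0.92; adjusted p over all alternatives from 0.0137 to 0.972).

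The last enzymes rearrange the double bonds of the ring. Ebp, sterol isomerase, had 48.0, 52.6 and 48.7 CPM in cKO WAT, against 102, 118 and 108 CPM in WT WAT (log2 fold change -1.13, SE 0.12, adjusted p = 0.000666). In culture, Ebp had 52.7, 44.3 and 45.1 CPM in KO cultures, against 50.7, 47.4 and 46.6 CPM in WT cultures (log2 fold change -0.03, SE 0.12, adjusted p = 0.884). The WAT groups of Ebp were apart, and its culture groups overlapped. Sc5d, lathosterol desaturase, had 59.1, 67.2 and 53.8 CPM in cKO WAT, against 181, 179 and 193 CPM in WT WAT (log2 fold change -1.62, SE 0.13, adjusted p = 0.000486). In culture, Sc5d had 48.0, 43.8 and 46.2 CPM in KO cultures, against 38.1, 43.5 and 58.0 CPM in WT cultures (log2 fold change -0.02, SE 0.13, adjusted p = 0.936). Sc5d was apart in WAT and overlapped in culture, where WT replicate 3 was the highest library. Dhcr7 makes cholesterol itself from its dehydro precursor, and it was the only synthesis enzyme to fall in both systems. It had 21.8, 20.4 and 24.5 CPM in cKO WAT, against 83.6, 101 and 109 CPM in WT WAT (log2 fold change -2.13, SE 0.15, adjusted p = 0.000414). In culture, Dhcr7 had 14.7, 16.9 and 15.6 CPM in KO cultures, against 25.3, 24.8 and 22.7 CPM in WT cultures (log2 fold change -0.62, SE 0.14, adjusted p = 0.00339). Its groups were apart in WAT and in culture, and both calls held under every alternative run. Summed over the 19 synthesis enzymes, the level was 621, 874 and 566 CPM in cKO WAT, against 2559, 2757 and 2876 CPM in WT WAT. In culture the same sum was 805, 726 and 787 CPM in KO cultures, against 818, 775 and 815 CPM in WT cultures, where the ranges overlapped.

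**Figure D2:**
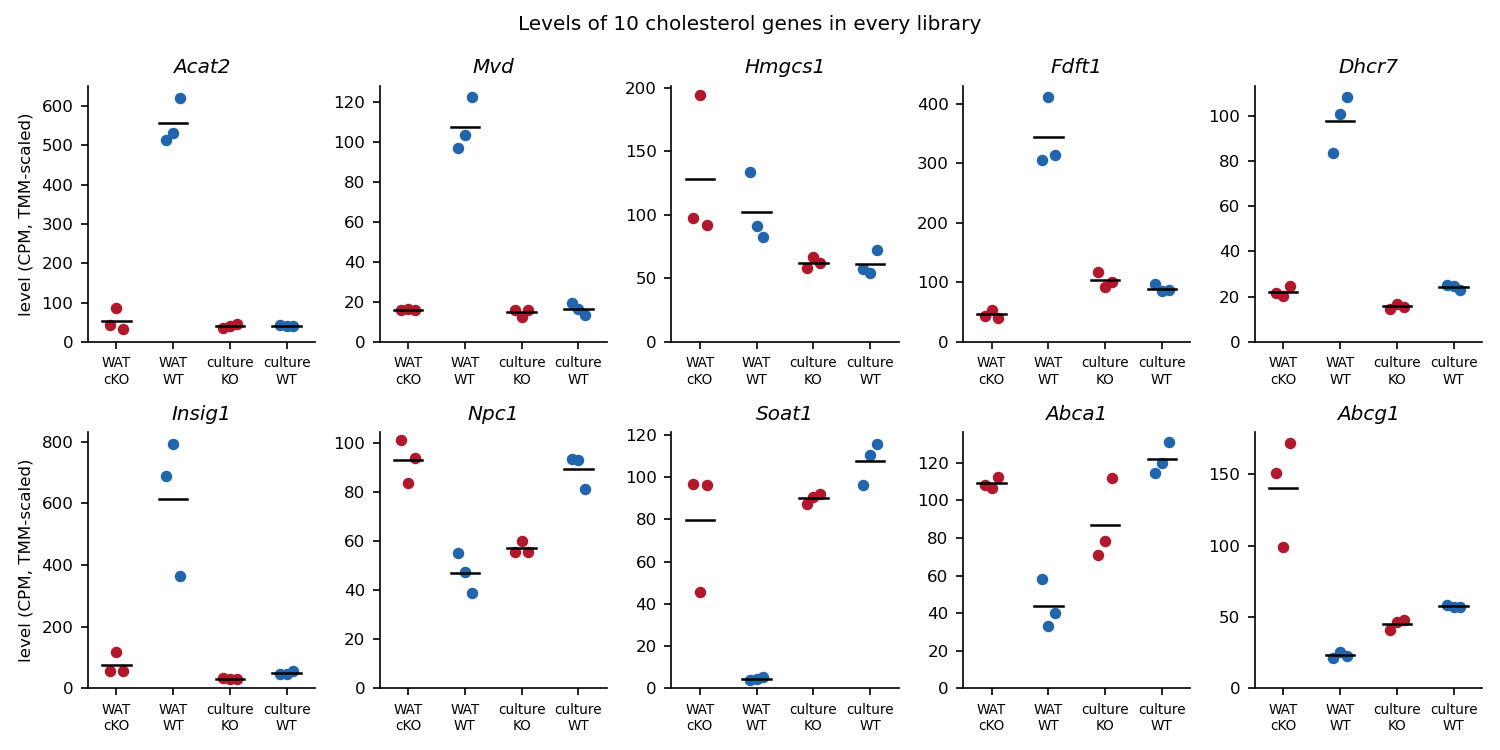
Level (CPM, TMM-scaled within each system, y axis from 0) of 10 of the genes in each library of cKO WAT, WT WAT, KO cultures and WT cultures, with 1 point per library and a line at the mean of 3. Acat2, Mvd, Fdft1, Dhcr7 and Insig1 are lower and Soat1, Abca1, Abcg1 and Npc1 higher in every cKO WAT library than in any WT WAT library, while Hmgcs1 overlaps.

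Because Hmgcs1 did not follow its arm, its reads were set over those of Fdft1 in the same library, a ratio that no scaling between libraries can move. Hmgcs1 had 2.20, 3.65 and 2.29 reads per Fdft1 read in cKO WAT, against 0.439, 0.222 and 0.263 in WT WAT. In culture the ratio was 0.495, 0.723 and 0.618 in KO, against 0.594, 0.633 and 0.841 in WT, with overlap. The WAT ranges were apart, which shows unequal change of the pair and not which of them changed. Fdft1 was already called lower in WAT and Hmgcs1 was not, so this separation is no further evidence. No test was run on the ratios.

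The list called sensors holds Srebf2, which encodes SREBP2 itself, and Scap, Insig1 and Insig2, whose proteins decide when SREBP2 acts. In cKO WAT 3 of 4 fell, beside 24.2% of all genes tested. The same 3, Srebf2, Scap and Insig1, fell in KO cultures, beside 10.6% of all genes tested. Srebf2 had 57.9, 54.2 and 71.9 CPM in cKO WAT, against 99.8, 96.0 and 75.3 CPM in WT WAT (log2 fold change -0.56, SE 0.17, adjusted p = 0.0255). In culture, Srebf2 had 72.0, 74.3 and 72.2 CPM in KO cultures, against 112, 114 and 93.6 CPM in WT cultures (log2 fold change -0.55, SE 0.11, adjusted p = 0.00178). The groups were apart in both systems. With library size alone the WAT change of Srebf2 was 0.13, and the call was lost there, with the replicate block and without WT replicate 1 or 2 or cKO replicate 1 (adjusted p over all alternatives from 0.00349 to 0.553). The culture call of Srebf2 was lost after removal of the length and GC trend (-0.22; adjusted p = 0.0550) and in 1 fit over 4 groups (adjusted p over all alternatives from 6.65e-05 to 0.0737). Scap escorts SREBP2 to the Golgi, and it had 43.0, 48.4 and 56.7 CPM in cKO WAT, against 89.9, 90.6 and 78.4 CPM in WT WAT (log2 fold change -0.81, SE 0.14, adjusted p = 0.00347). In culture, Scap had 67.8, 65.2 and 61.7 CPM in KO cultures, against 87.9, 85.7 and 70.9 CPM in WT cultures (log2 fold change -0.33, SE 0.12, adjusted p = 0.0461). The groups of Scap did not overlap in either system. The WAT call of Scap was lost with library size alone (-0.12; adjusted p over all alternatives from 1.92e-06 to 0.492). Its culture call was lost without any 1 library except WT replicate 3, and with RLE size factors, no count filter, removal of that trend or 1 fit over 4 groups (from 0.00539 to 0.826).

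Insig1 and Insig2 hold the SREBP2 and Scap complex in the endoplasmic reticulum, and Insig1 is itself a target of SREBP2. Insig1 had 55.2, 119 and 55.5 CPM in cKO WAT, against 689, 792 and 365 CPM in WT WAT (log2 fold change -3.00, SE 0.42, adjusted p = 0.00154). Its fall was the largest of the sensors, and WT replicate 3 was the lowest of the WT libraries, still above every cKO library. In culture, Insig1 had 33.4, 31.1 and 29.5 CPM in KO cultures, against 47.7, 46.7 and 56.4 CPM in WT cultures (log2 fold change -0.69, SE 0.12, adjusted p = 0.000539), again without overlap. That culture call was lost in 1 fit over 4 groups (adjusted p over all alternatives from 1.13e-05 to 0.249). Insig2 had 44.5, 50.6 and 38.1 CPM in cKO WAT, against 49.8, 42.4 and 48.8 CPM in WT WAT (log2 fold change -0.08, SE 0.14, adjusted p = 0.652). In culture, Insig2 had 45.3, 48.6 and 49.5 CPM in KO cultures, against 40.8, 44.2 and 45.1 CPM in WT cultures (log2 fold change 0.14, SE 0.11, adjusted p = 0.402). Insig2 overlapped in WAT, was slightly higher in each KO culture than in any WT culture, and did not pass in either system. In WAT it passed as higher with library size alone (0.59) and as lower after removal of the length and GC trend (-0.43; adjusted p over all alternatives from 0.00750 to 0.974). Reads of Insig1 per read of Insig2 were 1.24, 2.36 and 1.46 in cKO WAT, against 13.8, 18.7 and 7.48 in WT WAT. In culture they were 0.737, 0.641 and 0.595 in KO, against 1.17, 1.06 and 1.25 in WT. The ratio was thus lower in every knockout library of both systems. Insig1 was already called lower in both and Insig2 passed in neither, so this separation is no further evidence.

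**Figure D3:**
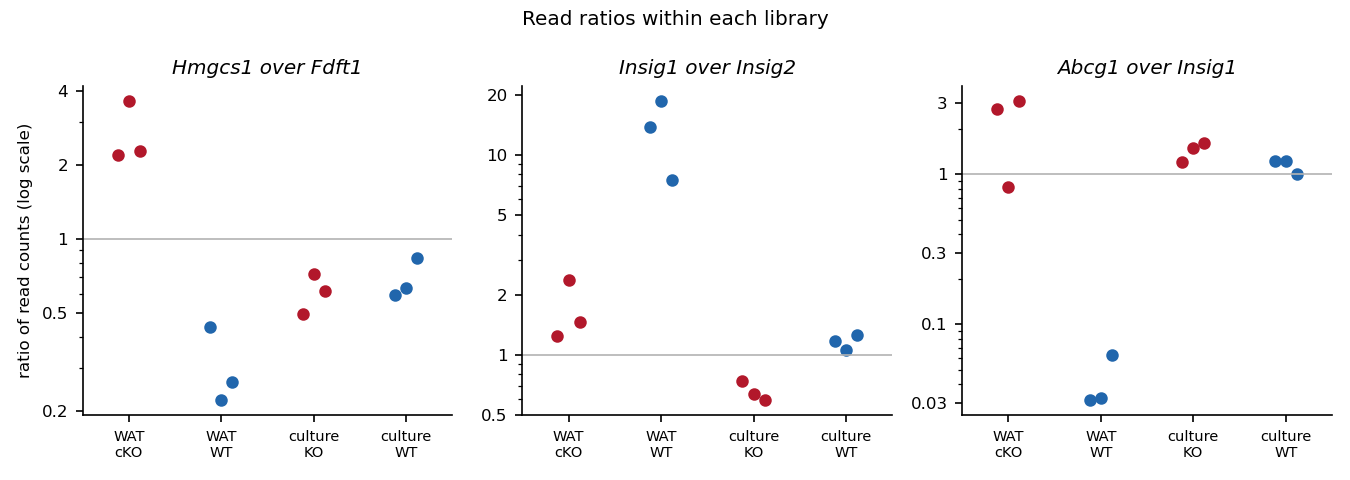
Ratio of read counts of 2 genes within each library (log y axis, grey line at 1) for Hmgcs1 over Fdft1, Insig1 over Insig2 and Abcg1 over Insig1, with 1 point per library in cKO WAT, WT WAT, KO cultures and WT cultures. In WAT the cKO and WT points are apart in all 3 panels, and in culture they are apart for Insig1 over Insig2.

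Transport and storage genes moved in different directions. In cKO WAT Soat1 and Npc1 rose, Npc2 fell and Stard4 did not pass, whereas in KO cultures Npc1 and Npc2 fell. Soat1 esterifies cholesterol in the endoplasmic reticulum and is prominent in macrophages. It had 96.9, 45.6 and 96.1 CPM in cKO WAT, against 4.01, 4.38 and 5.50 CPM in WT WAT (log2 fold change 4.10, SE 0.33, adjusted p = 0.000486). This 17.2-fold rise was the largest change among the 29 genes, and cKO replicate 2 stood below the other cKO libraries. In culture, Soat1 had 87.3, 90.8 and 91.8 CPM in KO cultures, against 96.5, 111 and 116 CPM in WT cultures (log2 fold change -0.26, SE 0.11, adjusted p = 0.101). Its culture groups did not overlap, with the KO lower, and the difference did not pass.

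Npc1 and Npc2 pass cholesterol out of the lysosome, Npc2 in its lumen and Npc1 in its membrane. Npc1 had 101, 83.5 and 94.0 CPM in cKO WAT, against 55.2, 47.3 and 39.0 CPM in WT WAT (log2 fold change 0.98, SE 0.16, adjusted p = 0.00264). In culture, Npc1 had 55.4, 60.0 and 55.6 CPM in KO cultures, against 93.7, 92.9 and 81.2 CPM in WT cultures (log2 fold change -0.65, SE 0.11, adjusted p = 0.000463). Its groups were apart in both systems and the directions were opposite. The WAT call of Npc1 was lost once the length and GC trend was removed (0.36; adjusted p over all alternatives from 2.23e-06 to 0.0897). Npc2, the most abundant of the 29 genes per kilobase of transcript, had 872, 804 and 739.9 CPM in cKO WAT, against 1825, 1991 and 1915 CPM in WT WAT (log2 fold change -1.25, SE 0.16, adjusted p = 0.00117). In culture, Npc2 had 642, 564 and 577 CPM in KO cultures, against 771, 847 and 832 CPM in WT cultures (log2 fold change -0.46, SE 0.11, adjusted p = 0.00565). It fell in both, so that the lysosomal pair moved apart in WAT and together in culture. The culture call of Npc2 was lost without WT replicate 2 and in 1 fit over 4 groups. Stard4, a carrier that moves sterols between membranes, had 14.6, 9.39 and 13.3 CPM in cKO WAT, against 9.76, 11.0 and 10.9 CPM in WT WAT (log2 fold change 0.24, SE 0.21, adjusted p = 0.369). In culture, Stard4 had 5.25, 4.97 and 5.02 CPM in KO cultures, against 4.48, 4.54 and 3.96 CPM in WT cultures (log2 fold change 0.23, SE 0.21, adjusted p = 0.474). Its WAT groups overlapped and its culture groups did not. It was the lowest of the 29 genes per kilobase in culture, at 50 to 107 reads per library.

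The efflux transporters rose in cKO WAT and fell in KO cultures. Abca1 hands cholesterol to lipid-poor apolipoprotein particles, and it had 108, 106 and 112 CPM in cKO WAT, against 58.1, 33.2 and 40.3 CPM in WT WAT (log2 fold change 1.31, SE 0.21, adjusted p = 0.00232). In culture, Abca1 had 70.9, 78.5 and 112 CPM in KO cultures, against 114, 120.1 and 131 CPM in WT cultures (log2 fold change -0.48, SE 0.14, adjusted p = 0.0150). The groups were apart in both systems, and KO culture replicate 3 was the KO library closest to WT. Abcg1 passes cholesterol to larger lipoprotein particles and is abundant in lipid-laden macrophages. Abcg1 had 151, 98.8 and 172 CPM in cKO WAT, against 21.6, 25.5 and 22.7 CPM in WT WAT (log2 fold change 2.59, SE 0.22, adjusted p = 0.000527). In culture, Abcg1 had 40.6, 46.4 and 48.0 CPM in KO cultures, against 58.4, 57.2 and 57.0 CPM in WT cultures (log2 fold change -0.35, SE 0.11, adjusted p = 0.0326). The groups of Abcg1 were apart in both systems, with opposite directions. In culture the call of Abca1 was lost without KO replicate 1, KO replicate 2 or WT replicate 2, and that of Abcg1 without KO replicate 1, KO replicate 2, WT replicate 1 or WT replicate 2. Both were also lost in 1 fit over 4 groups, and that of Abcg1 with removal of the length and GC trend.

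The rise of Soat1, Abca1 and Abcg1 in WAT stood beside the rise of 11 of 12 macrophage markers and 7 of 8 fibroblast markers. The falls of Abca1 and Abcg1 in culture stood beside the fall of 6 of 12 macrophage markers. Of the 8 fibroblast markers 1 rose and 1 fell in culture. Their sums were 9521 to 11106 CPM in KO cultures, against 12140 to 15069 CPM in WT cultures. In WAT 28.2% of all genes tested rose, and in culture 10.6% fell. Set against Insig1 in the same library, Abcg1 had 2.73, 0.828 and 3.09 reads per Insig1 read in cKO WAT, against 0.0313, 0.0323 and 0.0623 in WT WAT. In culture that ratio was 1.22, 1.49 and 1.63 in KO, against 1.22, 1.22 and 1.01 in WT, with overlap. Abcg1 was already called higher and Insig1 lower in WAT, so the separation of their ratio there is no further evidence. Within the cKO WAT group replicate 2 had the highest value for 16 of the 19 synthesis enzymes and the lowest for both efflux transporters. For Abca1 the margin was small, with 106 CPM in replicate 2, against 108 and 112 CPM in replicates 1 and 3. Abcg1 had 98.8 CPM in replicate 2, against 151 and 172 CPM. Replicate 2 also had the highest adipocyte marker sum and the lowest macrophage marker sum of the 3, as the plot of summed levels shows. Its fibroblast marker sum, 6138 CPM, was the lowest of the 3 as well. Left out, replicate 2 changed neither count, with 20 genes lower and 4 higher. The part of cell markers in these changes was not tested.

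**Figure D4:**
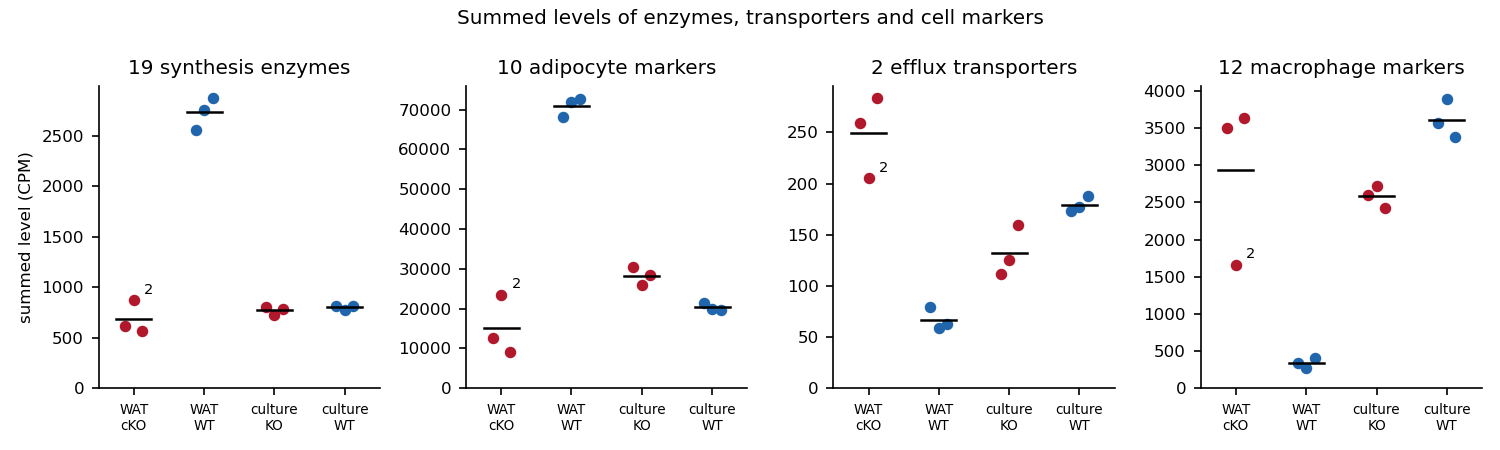
Summed level (CPM, y axes from 0 and different in each panel) of the 19 synthesis enzymes, 10 adipocyte markers, 2 efflux transporters and 12 macrophage markers in each library, with a line at the mean of 3; the digit marks cKO WAT replicate 2. Enzymes and adipocyte markers are lower, and efflux transporters and macrophage markers higher, in every cKO than in any WT WAT library, and replicate 2 lies nearest to WT in all 4 panels.

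The difference between the tissue and culture effects was tested in 1 fit over all 12 libraries. It passed for 22 of the 29 genes, 18 with a lower and 4 with a higher effect in WAT. Over all 14463 genes in that fit, 21.1% had a lower and 27.7% a higher effect in WAT. The 4 higher ones were Soat1, with a difference of 4.39 on the log2 scale (SE 0.34, adjusted p = 3.60e-06), Abcg1 2.98, Abca1 1.83 and Npc1 1.66. The largest of the 18 were Pmvk with -3.32 (SE 0.37, adjusted p = 2.65e-05), Acat2 with -3.26 and Fdft1 with -3.08. The 16 enzymes that fell in WAT were all among the 18, with Insig1 at -2.29 and Npc2 at -0.75. Srebf2 differed by 0.02 (SE 0.20, adjusted p = 0.947), so that no difference between its falls in the 2 systems was detected. The calls of Idi1, Msmo1 and Npc2 were lost with library size alone.

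Levels between genes were compared per kilobase of the longest annotated transcript. In cKO WAT Npc2 led with 244 CPM per kilobase, followed by Hmgcs1 with 36.9, Ebp with 28.6, Pmvk with 28.4 and Insig1 with 28.4, and neighbours from Hmgcs1 to Dhcr7 overlapped in their ranges. In WT WAT Npc2 also led with 579 CPM per kilobase, ahead of Acat2 with 247, Pmvk with 233, Insig1 with 228 and Fdft1 with 92.8. Hmgcs1 was thus at rank 2 in cKO WAT and at rank 14 in WT WAT, where its range overlapped those of Cyp51 and Msmo1. Soat1 was at rank 19 with 9.50 CPM per kilobase in cKO WAT and last, at rank 29 with 0.553, in WT WAT. In KO cultures the order began with Npc2 at 180.2, Pmvk at 33.9 and Fdps at 30.6 CPM per kilobase, and in WT cultures with Npc2 at 248, Fdps at 34.3 and Ebp at 27.7. The ranges of Pmvk and Fdps overlapped in KO cultures, as did those of Ebp and the next gene, Pmvk, in WT cultures. The median coefficient of variation of the 29 genes was 15.3% in cKO WAT, 14.6% in WT WAT, 8.85% in KO cultures and 9.22% in WT cultures. The widest was Acat2 in cKO WAT, at 51.9%.

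A list of 47 other sterol pathway genes gave the setting. In cKO WAT 23 of them fell and 12 rose, and in KO cultures 10 of 45 tested fell and 2 rose. Of all genes tested, 24.2% fell and 28.2% rose in WAT, and 10.6% fell and 8.94% rose in culture. The share that rose was therefore below that of all genes in both systems. The genes with the smallest p are described in each direction. Among the falls in WAT, Acss2, which activates acetate, had 29.9, 53.2 and 29.3 CPM in cKO WAT, against 1553, 1554 and 1653 CPM in WT WAT (log2 fold change -5.40, SE 0.30, adjusted p = 0.000347). Acly, which makes cytosolic acetyl-CoA from citrate, had 149.8, 349 and 154 CPM in cKO WAT, against 4911, 4254 and 6990.1 CPM in WT WAT (log2 fold change -4.63, SE 0.45, adjusted p = 0.000633). All cKO libraries lay far below all WT libraries for both. Aacs, which activates acetoacetate, changed by -3.47 (adjusted p = 0.000742).

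Among the rises in WAT, Nceh1, which hydrolyses cholesteryl esters, had 102, 40.8 and 93.2 CPM in cKO WAT, against 2.53, 1.75 and 2.56 CPM in WT WAT (log2 fold change 5.10, SE 0.40, adjusted p = 0.000486). Lipa, the lysosomal acid lipase, had 429, 217 and 422 CPM in cKO WAT, against 63.2, 54.2 and 58.6 CPM in WT WAT (log2 fold change 2.60, SE 0.27, adjusted p = 0.000720). Both had their lowest cKO value in replicate 2. Pltp, which transfers phospholipids between lipoproteins, rose by 2.24 (adjusted p = 0.00207), and Nus1, a subunit of the enzyme that makes dolichol precursors, by 1.02 (adjusted p = 0.00184). Genes that esterify cholesterol rose as well, Soat2 by 2.19 (adjusted p = 0.0470) and Lcat, which acts in plasma, by 1.04 (adjusted p = 0.0451); both were chosen after their values were seen. Soat2 rested on 40, 72 and 25 reads in cKO WAT, against 2, 3 and 12 reads in WT WAT. In KO cultures the smallest p among the falls belonged to Lrp1, an endocytic lipoprotein receptor, with 566, 584 and 893 CPM in KO cultures, against 1500.3, 1556 and 1042 CPM in WT cultures (log2 fold change -1.004, SE 0.16, adjusted p = 0.000178). Pltp fell by 0.74 on the log2 scale there (adjusted p = 0.000200), Ch25h, which makes an oxysterol, by 0.84 (adjusted p = 0.000224) and Abca7, a lipid transporter, by 0.89 (adjusted p = 0.000433). The 2 that rose in culture were Nr1h3, the liver X receptor alpha, with a log2 fold change of 0.47 (adjusted p = 0.00647), and Rabggtb, a subunit of the Rab prenyltransferase, with 0.41 (adjusted p = 0.0151).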

How the data were processed

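Per the labels' protocols, total RNA was extracted with TRIzol and messenger RNA libraries were prepared with an MGIEasy kit. The authors deposited 1 table of raw, unnormalized read counts for WAT and 1 for culture. FastQC 0.11.2, cutadapt 1.11, HISAT2 2.1.0 and build GRCm38 appear in the submitters' processing notes. The counter, its annotation and its strand setting are not stated there, so reads shared by overlapping genes cannot be told apart. By GENCODE M21, exons of 10 of the 29 genes overlap another gene, Fdps by more than 20% of its exonic bases. No replicates agreed within sampling noise (chi-square over its degrees of freedom at least 4.98).

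Groups came from sample titles. The 6 libraries of a comparison were fitted alone with edgeR 4.0.16 in R 4.3.3 (quasi-likelihood, filterByExpr at a minimum count of 10, TMM). Every adjusted p in the text comes from it unless named otherwise, by Benjamini-Hochberg over all genes tested, with a threshold of 0.05. The SE is the log2 fold change over the square root of F. Alternatives included DESeq2 1.42.0 and limma 3.58.1 (voom), and scripts were tested on simulated data. Length and GC content were known for 85.8% of the WAT and 98.0% of the culture genes. Members, lists and tests were chosen with earlier results of these data known. By rule, values in every library are given for the genes of each role with the smallest p (3 in WAT, 2 in culture), for those called in opposite directions and for those past the interaction test; the other members are given likewise. Of the other pathway genes, the 4 with the smallest p per direction are named, apart from 1 that is not reported here.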

Additional observations from a re-analysis of the deposited data

Results flagged for a closer look

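For 22 of the 29 genes the effect of the knockout in WAT differed from its effect in culture, by the interaction term over all 12 libraries (edgeR, Benjamini-Hochberg adjusted over 14463 genes). Among those 14463 genes, 21.1% had a lower and 27.7% a higher effect in WAT. Values are the WAT log2 fold change minus the culture one. In the mevalonate arm they were -3.26 for Acat2, -1.45 for Mvk, -3.32 for Pmvk, -2.54 for Mvd, -0.99 for Idi1 and -2.04 for Fdps. In the sterol arm they were -3.08 for Fdft1, -1.65 for Sqle, -2.01 for Lss, -1.70 for Cyp51, -2.11 for Tm7sf2, -0.85 for Msmo1, -2.01 for Nsdhl, -1.07 for Ebp, -1.57 for Sc5d and -1.48 for Dhcr7. Insig1 differed by -2.29 and Npc2 by -0.75. The effect was higher in WAT for Npc1 by 1.66, for Soat1 by 4.39, for Abca1 by 1.83 and for Abcg1 by 2.98. Npc1, Abca1 and Abcg1 passed in opposite directions in the 2 systems, higher in cKO WAT and lower in KO cultures. As a scale for the marker counts that follow, 24.2% of all genes tested fell and 28.2% rose in WAT. In culture 10.6% fell and 8.94% rose. In cKO WAT adipocyte markers fell (8 of 10), and macrophage (11 of 12) and fibroblast markers (7 of 8) rose. In KO cultures 4 of 10 adipocyte markers rose and 1 fell, and 6 of 12 macrophage markers fell. Of 8 fibroblast markers there, 1 rose and 1 fell. The part of these markers in the differences was not tested.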

How the results depend on the processing

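Each result was recomputed under 10 kinds of alternative. RLE size factors, DESeq2, limma voom, no count filter, summed numbered copies and 1 fit over 4 groups changed no call of the 29 genes in WAT. Library size alone gave 8 genes higher in WAT and 7 of the other 47 lower; Srebf2 was at 0.13, Hsd17b7 at 0.45 and Insig2 at 0.59, and Hmgcs1 at 0.99, Ggps1 at 0.94, Stard4 at 0.92 and Insig2 passed as higher. After removal of the length and GC trend, Ggps1 (-0.69), Hsd17b7 (-0.92) and Insig2 (-0.43) passed as lower, Hmgcs1 was at -0.34 and Stard4 at -0.52, and 6 of the other 47 rose. Leaving out any 1 library gave 7 to 10 rises among the other 47, against 12 with all libraries. With 1 library left out, Hmgcs1 ranged from -0.14 (without cKO replicate 2) to 0.55 and Insig2 from -0.21 to 0.0067. The cause of these shifts was not tested.

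In culture, 1 fit over 4 groups, whose spread takes in the more variable WAT libraries, left 2 of the 29 genes lower and, of the other 47, 2 lower and 0 higher; over all genes it called 58 higher and 88 lower, against 1125 and 1334. After removal of that trend 2 of the 29 and 4 of the other 47 rose, Hmgcs1 was at -0.13 and Idi1 at -0.0393. Library size alone put Hmgcs1 at -0.03 and Mvk at -0.0451, and no filter put Sc5d at 0.0001. Leaving out 1 library gave 4 to 8 of the 29 lower and 0 to 2 higher, and 6 to 12 of the other 47 lower and 1 to 3 higher. Over the same omissions Acat2 ranged from -0.16 to 0.027, Cyp51 from -0.12 to 0.0259, Ebp from -0.11 to 0.0188, Hmgcs1 from -0.0451 to 0.17, Mvk from -0.0598 to 0.11 and Sc5d from -0.14 to 0.18. Over all genes, calls in culture were fewest without WT replicate 2 (399 higher, 498 lower).

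Replicate numbers were not taken to pair the samples: deviations of same-numbered libraries correlated at -0.33, 0.03 and -0.23 in WAT and at 0.18, 0.03 and 0.24 in culture. With the number as a replicate block, 19 of the 29 genes fell and 4 rose in WAT, and 11 fell and 2 rose in culture; over all genes 3771 rose and 3487 fell in WAT, and 1816 rose and 2008 fell in culture. Culture depth of 10863158 to 21773610 counts limits Stard4 most.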

Other observations

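The 47 other sterol pathway genes divided by branch as follows. In cKO WAT 8 of 12 genes of acetyl supply, synthesis and its control fell and 2 rose, 5 of 9 genes of the isoprenoid branches fell and 2 rose, and 7 of 16 genes of uptake, lysosome and transfer fell and 4 rose. Of the 5 genes of oxysterols and their receptors 2 fell and 1 rose, and of the 5 genes of efflux and storage 1 fell and 3 rose. In KO cultures 4 of the 12 synthesis and control genes fell, 1 of the 9 isoprenoid genes rose, and 3 of 15 tested uptake and transfer genes fell. There, 1 of the 5 oxysterol and receptor genes fell and 1 rose, and 2 of 4 tested efflux and storage genes fell. The median log2 fold changes of these branches in WAT were -0.78, -0.53, -0.23, -0.45 and 1.04 in that order, against 0.12 over all genes tested. Of all genes tested, 24.2% fell and 28.2% rose in WAT, and 10.6% fell and 8.94% rose in culture. The shares that rose were below or near those of all genes in every branch but efflux and storage in WAT and oxysterols and receptors in culture, where 1 of 5 rose. No explanation was tested for the spread between branches.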
